A study of Mus musculus with 18 samples.

Results

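The liver takes up bile acids, hormones and drugs from blood through carriers of the Slco and Slc22 gene families, and 9 of these genes were followed here across 18 mouse livers. The genes are Slco1a1, Slco1a4, Slco1b2, Slco2b1, Slc22a7, Slc22a27, Slc22a28, Slc22a29 and Slc22a30. They were chosen by symbol out of 35441 genes with measured differences between these groups already known, so the differences that involve untreated Lipa-/- mice are given below as descriptions, without p values. The same holds for Slc22a27 and Slc22a29 in treated against WT mice at 34 weeks. It also holds for the changes of Slc22a27 and Slc22a29 over time in WT mice and relative to them. All 9 passed the filter of more than 100 reads summed over the 18 livers, as did 14535 genes in all. The livers came from WT mice, Lipa-/- mice and Lipa-/- mice treated with rAAV8, with 3 mice of each kind at 12 weeks and 3 at 34 weeks post-injection, which the labels call 3 and 8 months. Lipa-/- mice lack lysosomal acid lipase, the enzyme that breaks down cholesteryl esters and triglycerides in lysosomes, and the WT mice were littermates without a treatment. The vector carried human LIPA with a tag under the hAAT promoter, which drives expression in hepatocytes. Per the study's methods the mice were male, an exon of Lipa was removed in all tissues with a CMV-Cre, and most untreated Lipa-/- mice of the later time point were killed at humane endpoints rather than at 34 weeks. The label of a study code also differs between the time points, so that time, code and, in untreated Lipa-/- mice, age at sampling cannot be told apart. The untreated mouse 5 of 12 weeks carries a code of its own.

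Libraries held 17527848 to 25833134 estimated reads. Murine Lipa was at 3768 to 8307 reads in WT livers and at 336 to 859 in the 12 Lipa-/- livers, treated or not. Human LIPA was at 13440 to 50262 reads in the 6 treated livers, at 0 in the 6 untreated Lipa-/- livers and at 23 reads in 1 WT liver of 34 weeks (mouse 2). The liver labelled Lipa-/- mouse 4 at 34 weeks held 0 reads of Ddx3y and of Eif2s3y, which lie on the Y chromosome, while the other 17 libraries held 961 to 1803 reads of Ddx3y. Uty and Kdm5d, also on the Y chromosome, were at 17.9 and 33.1 reads in that liver. The other libraries held 151 to 520 and 138 to 396 reads of them. These values go against a group of male mice. The fold changes of members in untreated against WT mice at 34 weeks, but for Slc22a28, are therefore also given without the library labelled mouse 4. So are the counts of called members. Other values of untreated mice at 34 weeks include it, such as sums, gene lists, markers and the fold changes against treated mice. Several of the 9 genes are known to differ between the sexes.

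Slco genes encode organic anion transporting polypeptides, which move bile acids, bilirubin, steroid conjugates and many drugs into hepatocytes without sodium. Slc22 genes encode organic anion and organic cation transporters, which exchange or carry small charged molecules. In mouse liver, some members of both families are transcribed mainly in males or mainly in females, a difference set by the sex-specific rhythm of growth hormone and by STAT5B, the factor that growth hormone activates in hepatocytes.

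The 4 genes Slc22a27, Slc22a28, Slc22a29 and Slc22a30 lie on the minus strand of chromosome 19 in GRCm39, within 541 kb. Their positions were chr19:7841301-7943962, chr19:8039327-8109346, chr19:8137529-8230661 and chr19:8312731-8382475. By coding sequence they form 2 pairs. Slc22a27 and Slc22a29 were 97.3% identical, Slc22a28 and Slc22a30 were 98.8% identical, and a gene of one pair was 91.7% to 92.4% identical to a gene of the other. The first 90 coding bases show the pairing, with capitals at positions where the 4 genes differ.
Slc22a27: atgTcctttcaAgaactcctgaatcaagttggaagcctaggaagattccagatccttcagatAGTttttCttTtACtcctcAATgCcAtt
Slc22a29: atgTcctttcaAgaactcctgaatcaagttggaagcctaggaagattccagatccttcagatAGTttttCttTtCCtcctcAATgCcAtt
Slc22a28: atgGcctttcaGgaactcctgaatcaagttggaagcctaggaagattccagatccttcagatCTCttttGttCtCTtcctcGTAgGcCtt
Slc22a30: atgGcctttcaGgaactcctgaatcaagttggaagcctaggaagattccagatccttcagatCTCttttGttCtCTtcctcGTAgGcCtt

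Within this stretch Slc22a28 and Slc22a30 had the same base at every position, and Slc22a29 matched Slc22a27 at 89 of 90 positions. Of all 31-base words in the transcripts of Slc22a27, 31.5% also stood in a transcript of another gene, and the share was 33.8% for Slc22a28, 40.2% for Slc22a29 and 39% for Slc22a30. Reads from such words are divided between genes by estimation, so the counts within a pair are less certain than their sum, and sums of a pair are given beside its genes. The other members shared few or no words, with 3.97% for Slco1a1, 3.67% for Slco1a4 and 0% for Slco1b2, Slco2b1 and Slc22a7.

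The likeness of Slc22a28 and Slc22a30 reached into their promoters, which are shown because both genes were lower in untreated Lipa-/- livers, as described below. The 250 bases before their starts (chr19:8109347-8109596 and chr19:8382476-8382725, GRCm39, minus strand) differed at 6 positions, in capitals.
Slc22a28: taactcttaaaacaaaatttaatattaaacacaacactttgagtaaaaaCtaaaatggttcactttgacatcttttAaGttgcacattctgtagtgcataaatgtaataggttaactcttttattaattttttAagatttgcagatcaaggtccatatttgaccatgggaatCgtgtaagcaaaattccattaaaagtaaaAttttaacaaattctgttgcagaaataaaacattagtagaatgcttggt
Slc22a30: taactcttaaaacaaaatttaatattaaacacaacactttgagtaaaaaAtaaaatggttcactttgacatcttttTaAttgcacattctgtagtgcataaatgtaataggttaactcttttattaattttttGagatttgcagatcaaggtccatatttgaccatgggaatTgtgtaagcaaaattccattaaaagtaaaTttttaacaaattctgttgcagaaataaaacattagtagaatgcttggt

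The letters TTCNNNGAA, to which STAT5 proteins bind and which read alike on both strands, stood in the 250 bases before the start of 1 of the 9 members, Slco1b2, and in 7.70% of 21770 promoters of protein-coding genes. In Slco1b2 the match lay 141 to 133 bases before the start. No match in this window says only that these letters are not there. The other positions on GRCm39 were chr6:141853007-141892690 for Slco1a1, chr6:141751165-141802036 for Slco1a4 and chr6:141575179-141633546 for Slco1b2, chr7:99306783-99360547 for Slco2b1 and chr17:46743044-46749407 for Slc22a7. Slco1a1 and Slco1a4 were 86.7% identical in coding sequence, and the 3 genes on chromosome 6 lay within 318 kb.

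In WT livers at 12 weeks, compared as TPM because it is corrected for transcript length, Slco1b2 was highest with 284 ± 14.2 TPM (SD, n = 3). Slco1a1 followed at 137 ± 10.3 and Slc22a30 at 118 ± 6.82, where the ranges of 125 to 145 and 111 to 124 TPM came close without overlap. Slc22a7 stood at 46.5 ± 4.73 and Slco2b1 at 35.7 ± 9.69, with ranges that overlapped, and then Slc22a28 at 19.7 ± 1.66. Slco1a4 at 3.00 ± 1.55, Slc22a27 at 0.271 ± 0.192 and Slc22a29 at 0.0887 ± 0.0370 TPM were low in WT livers of 12 weeks. The 9 genes summed to 612 to 663 TPM in these mice and to 151 to 186 TPM in untreated Lipa-/- mice. In treated Lipa-/- mice the sum was 477 to 687 TPM. By 34 weeks the sums were 541 to 586 in WT, 99.1 to 131 in untreated and 532 to 624 in treated mice, so untreated livers stayed below all others at both time points. In WT livers of 34 weeks the order was led by Slco1b2 at 330.4 ± 21.2, Slc22a30 at 88.4 ± 10.4 and Slco2b1 at 48.8 ± 21.0 TPM, with Slco1a1 at 41.2 ± 32.5 TPM after them by its mean. The ranges of Slco1a1 and Slco2b1 overlapped, at 8.88 to 73.8 and 24.6 to 61.0 TPM. In untreated mice of 12 weeks it was led by Slco1b2, with a range of 93.9 to 126 TPM, then Slc22a30 at 18.6 ± 1.47, Slco2b1 at 16.2 ± 4.68 and Slco1a4 at 12.3 ± 3.37 TPM, where Slco2b1 overlapped with both of its neighbours and Slc22a30 and Slco1a4 did not overlap. In bulk liver, fewer hepatocytes and less RNA per hepatocyte cannot be told apart.

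**Figure D1:**
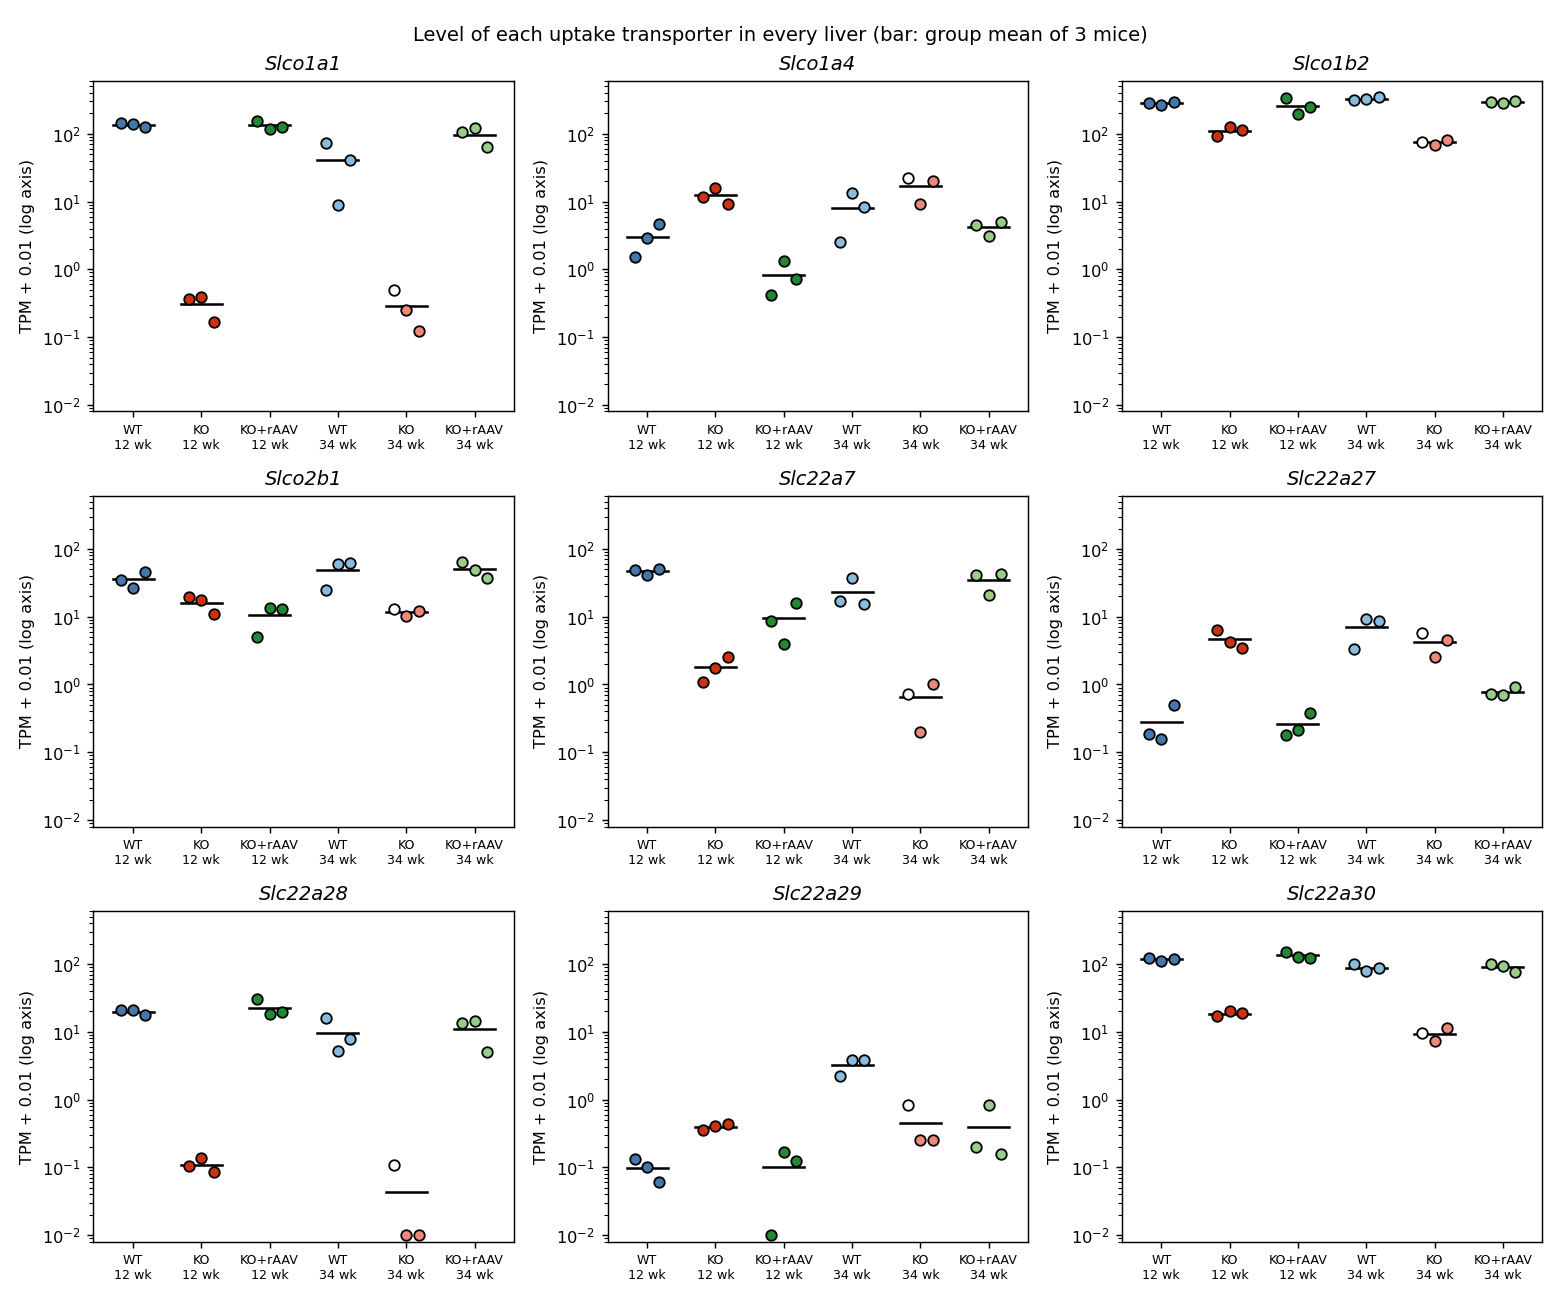
TPM + 0.01 of each gene (log axis) in every liver, by group, with 3 mice per group as points and the group mean as a bar; the open circle is the library labelled Lipa-/- mouse 4 at 34 weeks. Slco1a1 and Slc22a28 lie at most at 0.492 TPM in untreated Lipa-/- mice (KO) and at 4.99 TPM or more in the WT and treated (KO+rAAV) mice, whereas Slc22a27 is low in WT and treated mice at 12 weeks.

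The make-up of the sum differed as well. Slco1b2 made up 44.1% ± 0.983 (SD) of it in WT and 67.1% ± 4.55 in untreated Lipa-/- mice at 12 weeks, although its own level was lower in the latter. The share of Slco1a1 went from 21.2% ± 2.10 to 0.180% ± 0.0709, while Slco1a4 went from 0.465% ± 0.233 to 7.38% ± 1.39. In treated mice of 12 weeks Slco1b2 was at 44.8% ± 4.20 and Slco1a1 at 23.4% ± 1.23. The WT share of Slco1a1 at 34 weeks was 7.33% ± 5.87, with mice that differed widely from each other. These shares are descriptions over 3 mice per group.

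**Figure D2:**
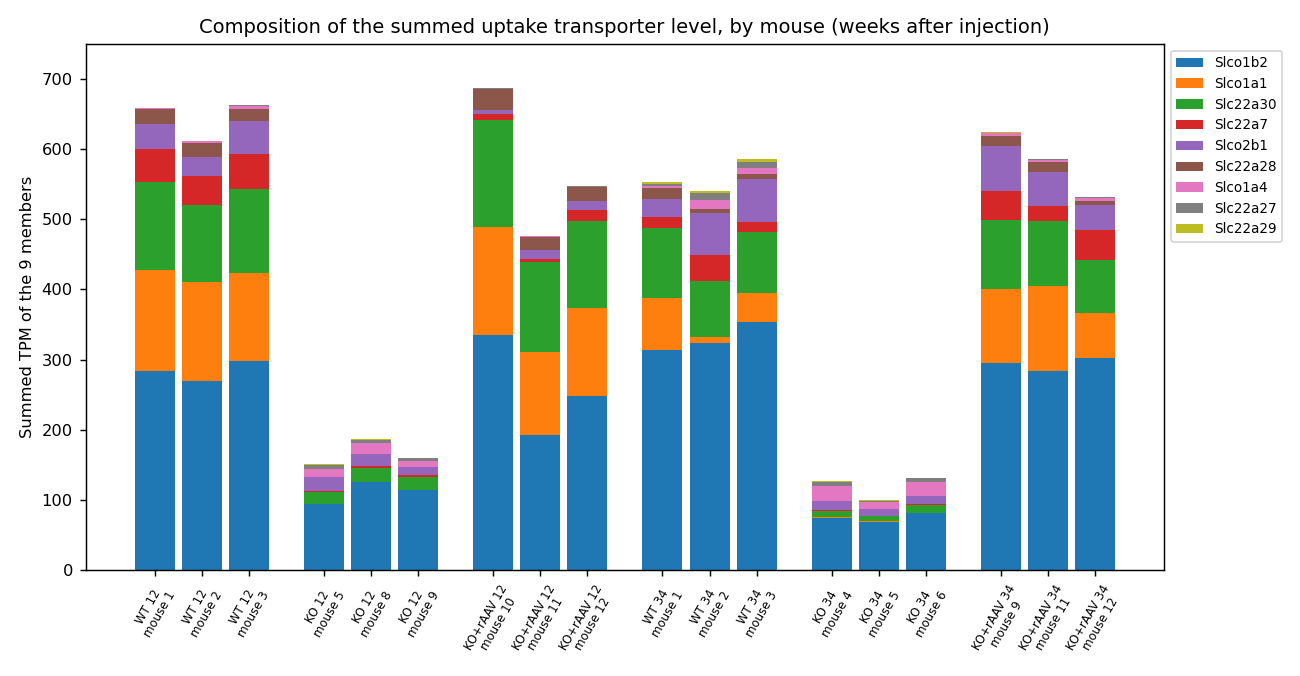
Summed TPM of the 9 genes in each liver, stacked by gene, for WT, untreated (KO) and treated (KO+rAAV) Lipa-/- mice at 12 and 34 weeks. Untreated mice reach 186 TPM at most and the other mice 477 TPM at least, and Slco1b2 is the largest part in every liver.

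Differences between untreated Lipa-/- and WT livers were large for most of the 9 genes and not of one direction. A gene was called at a log2 fold change beyond 1 in either direction with an adjusted p under 0.05 over all 14535 genes. At 12 weeks 6 members were lower and 3 were higher by this rule, where 9.07% of all tested genes were called lower and 20.2% higher. At 34 weeks 8 were lower and 0 higher, against 15.7% and 20.5% of all genes, and 8 were called without the library labelled mouse 4. Without untreated mouse 5 of 12 weeks, 8 of 9 were called at that time. The genes were chosen with such differences in view, so nothing is read from these counts. Values below are CPM, reads relative to the library's total after TMM scaling. Scaling by total counts would move the median gene by 0.47 on the log2 scale at 12 weeks and by 0.63 at 34 weeks in this comparison.

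Slco1a1 encodes an organic anion carrier known to be far more abundant in male than in female mouse liver. At 12 weeks it was at 578, 639 and 435 CPM in the 3 WT livers and at 0.958, 1.17 and 0.404 CPM in the 3 untreated Lipa-/- livers. Later, WT livers held 339.7, 25.2 and 122 CPM and the untreated Lipa-/- livers 0.851, 0.541 and 0.257 CPM. The groups were far apart at both times, with log2 fold changes of -9.34 ± 0.88 (SE) and -8.17 ± 0.85. Without the library labelled mouse 4 the later value was -8.65.

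Its close relative Slco1a4, a carrier of bile acids and cardiac glycosides that xenobiotic receptors induce, went the other way. It was at 5.84, 12.2 and 11.9 CPM in WT and at 33.7, 42.2 and 23.6 CPM in untreated Lipa-/- livers at 12 weeks, a log2 fold change of 1.73 ± 0.40. WT livers of 34 weeks held 11.2, 31.6 and 22.8 CPM and untreated livers 33.9, 18.6 and 38.4 CPM. These ranges overlapped, and the log2 fold change of 0.47 ± 0.39 was not called (0.38 without the library labelled mouse 4). In a fit to log2(TPM + 1) it was 1.14 and called. The other 2 Slco genes were lower in the untreated mice at both times.

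Slco1b2 takes up bile acids, bilirubin and statins and is the mouse counterpart of the human SLCO1B carriers. It held 1020, 1108 and 937 CPM in WT and 257, 337 and 279 CPM in untreated Lipa-/- livers at 12 weeks, and 1294, 826 and 959 against 118, 149 and 169.9 CPM at 34 weeks. The log2 fold changes were -1.81 ± 0.30 and -2.82 ± 0.31. Slco2b1, a carrier found in many organs, held 135, 123 and 159 against 65.9, 53.1 and 31.2 CPM at 12 weeks. Its values at 34 weeks were 113, 168 and 172 against 24.5, 27.4 and 28.7 CPM, and its log2 fold changes were -1.47 ± 0.29 and -2.49 ± 0.30. Without the library labelled mouse 4 the later values were -2.69 and -2.43.

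Slc22a7 encodes an organic anion transporter of the hepatocyte's blood side. WT livers held 99.9, 94.6 and 90.1 CPM at 12 weeks and 40.1, 54.8 and 23.7 CPM at 34 weeks. Untreated Lipa-/- livers held 1.70, 2.68 and 3.52 and 0.662, 0.155 and 1.21 CPM, all below every WT liver. The log2 fold changes were -5.17 ± 0.60 and -5.85 ± 0.64, the latter -5.83 without the library labelled mouse 4.

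The pair Slc22a28 and Slc22a30, printed above, was lower in the untreated mice. Slc22a30 was at 302, 301 and 253 CPM in WT and 30.7, 35.3 and 30.1 CPM in untreated livers at 12 weeks, and at 274, 138 and 156 against 10.0, 10.3 and 15.4 CPM at 34 weeks. Its log2 fold changes were -3.15 ± 0.29 and -3.99 ± 0.31, the latter -3.88 without the library labelled mouse 4. Slc22a28 was at 43.7, 48.5 and 32.5 against 0.148, 0.199 and 0.106 CPM at 12 weeks, with a log2 fold change of -8.04 ± 0.77. The untreated livers held only 4.2, 5.1 and 2.6 reads at that time, close to the limit of detection. The size of this change is therefore uncertain. At 34 weeks it was at 38.0, 7.75 and 12.2 CPM in WT livers, while the 3 untreated livers held 2.89, 0 and 0 reads, under the 3 reads taken as the limit of detection. Against that limit per library, Slc22a28 was at least 181-fold lower, or at least 93.5-fold lower without WT mouse 1, whose value was highest. The summed pair was at -3.34 ± 0.32 and -4.13 ± 0.33 on the log2 scale. The fitted change of Slc22a28 was larger than that of its near-identical neighbour at 12 weeks, although 33.0% of its words are shared with Slc22a30. The few reads of Slc22a28 in untreated livers leave the size of this gap uncertain.

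The other pair, Slc22a27 and Slc22a29, was higher in untreated than in WT livers at 12 weeks and lower at 34 weeks. Slc22a27 held 0.322, 0.335 and 0.890 CPM in WT and 9.68, 6.71 and 5.21 CPM in untreated livers at 12 weeks, a log2 fold change of 3.80 ± 0.45. The WT values rest on only 6.0, 7.0 and 17.0 reads, so the size of this change is uncertain. Later, the WT livers held 8.32, 14.6 and 14.4 CPM and the untreated livers 5.52, 3.44 and 5.92 CPM, a log2 fold change of -1.33 ± 0.37. The ranges of the untreated livers overlapped between the time points, and the WT livers of 34 weeks were high. The later difference was -0.73 with total-count scaling, -0.57 and -0.66 in fits to log2(TPM + 1) and log2(TPM + 0.1), and was not called in any of these. Without the library labelled mouse 4 it was -1.41.

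Slc22a29 was low in all livers but those of WT mice at 34 weeks. It stood at 5.00, 5.24 and 2.00 reads in WT and 17.1, 13.2 and 16.1 reads in untreated livers at 12 weeks, a log2 fold change of 1.49 ± 0.56 on CPM. This call was lost when any 1 of the 6 mice was left out. At 34 weeks the WT livers held 4.89, 5.65 and 6.06 CPM and the untreated livers 0.537, 0.309 and 0.333 CPM, a log2 fold change of -3.79 ± 0.51, or -4.09 without the library labelled mouse 4. The summed pair was at 3.43 ± 0.37 at 12 weeks and -1.75 ± 0.32 at 34 weeks.

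**Figure D3:**
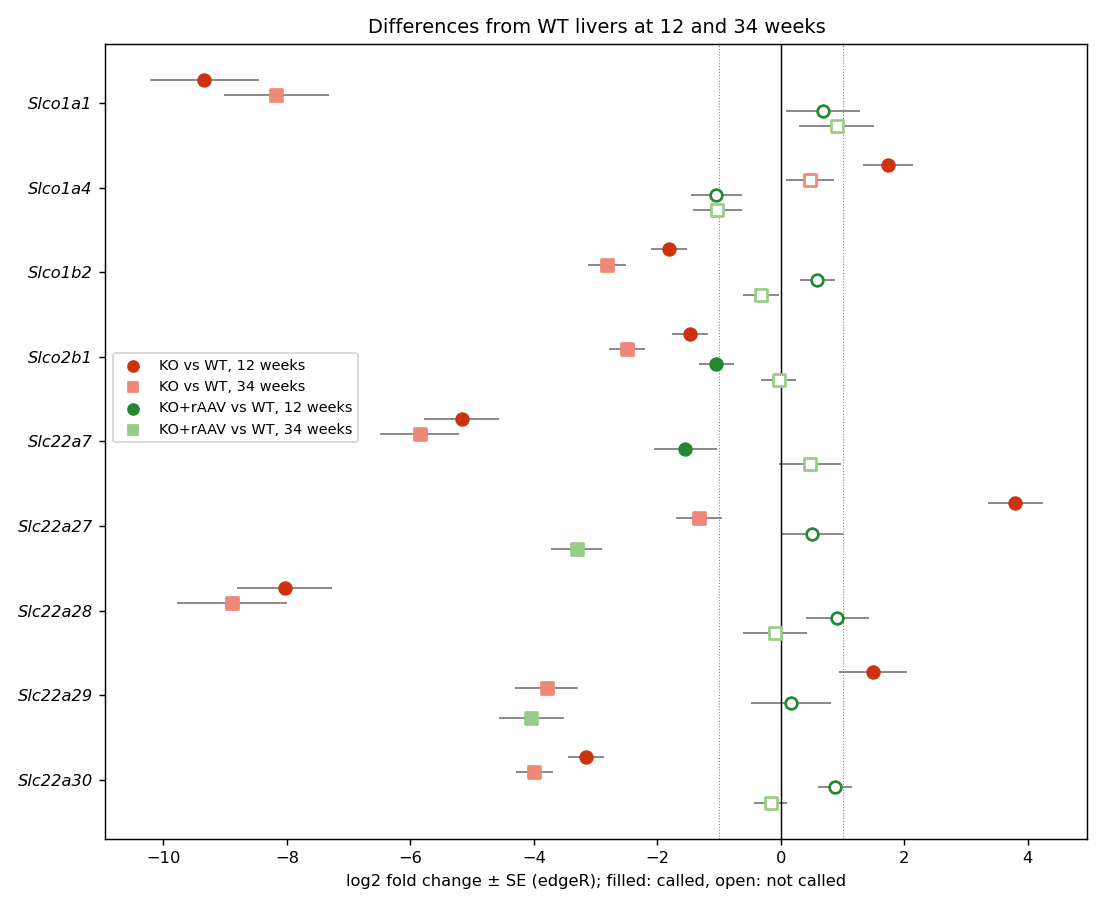
Log2 fold change of each gene against WT mice (x axis, bars are SE from edgeR) for untreated (KO) and treated (KO+rAAV) Lipa-/- mice at 12 and 34 weeks; filled points were called, open points were not, and dotted lines mark a log2 fold change of 1. Slco1a1 lies at -9.34 and -8.17 in untreated mice, and the position of Slc22a28 in untreated mice at 34 weeks depends on the prior count because its reads were at the limit of detection. At 12 weeks its reads in untreated mice were close to that limit.

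The next question was whether the livers of treated Lipa-/- mice differed from those of WT mice. Both this comparison and the one above use the same WT livers. At 12 weeks 2 of the 9 members were called lower and 0 higher, where 12.0% of all tested genes were called lower and 13.6% higher, so a call was common among all genes in this comparison. Slc22a7 was at 33.0, 10.7 and 53.5 CPM in treated livers, below the 90.1 to 99.9 CPM of WT livers, with a log2 fold change of -1.55 ± 0.51 (edgeR, adjusted p = 0.0269). Slco2b1 was at 42.7, 74.0 and 84.7 CPM against 123 to 159 CPM, with -1.05 ± 0.29 (adjusted p = 0.0122). Both calls were lost without WT mouse 3 and without treated mouse 10. That of Slc22a7 was also lost without WT mouse 1 (-1.51) or treated mouse 11 (-1.13), and that of Slco2b1 with DESeq2, just short of the fold threshold.

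The remaining members were not called at 12 weeks. Slco1a1 was at 1195, 635 and 828 CPM in treated livers, a range that overlapped with WT, with a log2 fold change of 0.69 ± 0.60 (adjusted p = 0.379). In TPM its means were 133 ± 19.1 in treated and 137 ± 10.3 in WT mice (SD, n = 3). Slco1b2 was at 2276, 906 and 1431 CPM (0.59 ± 0.29, adjusted p = 0.114), and its sign turned in fits to TPM, as did that of Slco1a1. Slc22a30 was at 689.7, 401 and 477 CPM, with 0.87 ± 0.27 (adjusted p = 0.0216), short of the threshold on the fold. Slc22a28 was at 119.9, 50.1 and 65.6 CPM (0.92 ± 0.51, adjusted p = 0.165). Slco1a4 was at 3.11, 6.95 and 4.22 CPM, a range that overlapped with WT by 1 mouse, with -1.05 ± 0.41 (adjusted p = 0.056). It was called lower with DESeq2 (-1.01), total counts (-1.40), length offsets (-1.31), no filter (-1.07) and log2(TPM + 0.1) (-1.77), and without WT mouse 1 (-1.32) or treated mouse 11 (-1.44). Slc22a27 at 0.583, 0.489 and 1.15 CPM and Slc22a29 at 0, 0.326 and 0.307 CPM were as low as in WT livers of this time, with overlapping ranges. Total-count scaling shifted the median gene by -0.40 on the log2 scale here.

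At 34 weeks 2 members were called lower in treated than in WT livers and 0 higher, where 0.0894% and 0.131% of all tested genes were called. They were the pair Slc22a27 and Slc22a29, the one that was high in WT livers of this time. Slc22a27 was at 0.935, 1.31 and 1.52 CPM in treated livers against 8.32 to 14.6 CPM in WT livers, a log2 fold change of -3.31 ± 0.41. Slc22a29 was at 0.319, 0.492 and 0.195 CPM against 4.89 to 6.06 CPM, with -4.05 ± 0.53. The same WT livers entered differences known when the genes were chosen. These 2 genes are therefore given without p values, and nothing is read from their count. The estimated transcript length of Slc22a29 ranged from 597 to 2039 bases among the treated mice. The call of Slc22a29 was lost with offsets for transcript length. The other 7 were not called. Slco1a1 was at 292, 417 and 201 CPM and Slc22a7 at 59.8, 36.3 and 68.1 CPM in treated livers, with log2 fold changes of 0.90 ± 0.60 and 0.47 ± 0.50 (adjusted p = 0.965 and 0.969). Slco1b2 at 730.2, 882 and 845 CPM, Slco2b1 at 170.4, 154 and 118 CPM and Slc22a30 at 169.7, 194 and 144 CPM overlapped with the WT livers. So did Slc22a28 at 19.8, 26.3 and 8.18 CPM, while Slco1a4 was at 9.14, 9.62 and 13.4 CPM, with a log2 fold change of -1.03 ± 0.40 (adjusted p = 0.684).

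Against untreated Lipa-/- livers, 5 members were called higher and 2 lower in treated livers at 12 weeks, where 16.2% and 25.3% of all genes were called. At 34 weeks 6 were called higher and 2 lower, against 12.9% and 18.6%. This comparison shares its untreated livers with the first one and is given as a description. Slco1a1 was at a log2 fold change of 10.02 ± 0.90 at 12 weeks and 9.08 ± 0.88 at 34 weeks. Slc22a7 was at 3.62 ± 0.57 and 6.32 ± 0.65, Slco1b2 at 2.40 ± 0.30 and 2.49 ± 0.30, and Slc22a30 at 4.03 ± 0.31 and 3.83 ± 0.30. Slc22a28 was at 8.95 ± 0.79 at 12 weeks, a size that rests on few reads in untreated livers. It was at least 169-fold higher at 34 weeks (at least 131-fold without the highest treated mouse). Slco2b1 was called at 34 weeks, with 2.45 ± 0.30, and not at 12 weeks, with 0.42 ± 0.28. The members lower in treated livers were Slco1a4, at -2.78 ± 0.43 and -1.49 ± 0.40, and Slc22a27, at -3.29 ± 0.44 and -1.98 ± 0.40. Slc22a29 alone was at -1.33 ± 0.58 and -0.25 ± 0.53, not called at either time, but at 12 weeks it was called with total counts (-2.15), upper quartile scaling (-1.43) and log2(TPM + 0.1) (-1.45). The summed pair of Slc22a27 and Slc22a29 was called lower at both times, at -3.02 ± 0.37 and -1.75 ± 0.34. The summed pair of Slc22a28 and Slc22a30 was at 4.22 ± 0.33 and 3.97 ± 0.33, well under the value of Slc22a28 alone at 12 weeks. Without the library labelled mouse 4, 8 members were called at 34 weeks as well.

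WT livers of 34 and 12 weeks were then compared with each other. Of the 9 members 2 were called, both higher at 34 weeks, where 0.323% of all tested genes were called in either direction. Slc22a27 rose from 0.322, 0.335 and 0.890 to 8.32, 14.6 and 14.4 CPM, with a log2 fold change of 4.59 ± 0.45 (edgeR). Its 12-week values rest on only 6.0, 7.0 and 17.0 reads. Slc22a29 rose from 0.268, 0.251 and 0.105 to 4.89, 5.65 and 6.06 CPM, with 4.72 ± 0.56. The same WT livers entered differences known when the genes were chosen. No p values are therefore given for these 2 genes, and nothing is read from their count. The summed pair was at 4.64 ± 0.38. Slc22a26, which lies beside Slc22a27 on the same strand, was higher too, from 0.0536, 0.144 and 0.105 to 1.89, 4.85 and 2.37 CPM (4.83 ± 0.84). Its 12-week values were 1, 3 and 2 reads, at or under the limit of detection, so the size of this rise is uncertain. Slc22a26 was named for its call in untreated against WT mice, which uses the same WT livers, so no p value is given. The 12- and 34-week mice carry different study codes, whose part in this result cannot be told apart from time.

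The WT livers of 34 weeks also differed among themselves. Mice 1, 2 and 3 held 339.7, 25.2 and 122 CPM of Slco1a1, 38.0, 7.75 and 12.2 CPM of Slc22a28 and 11.2, 31.6 and 22.8 CPM of Slco1a4, so mouse 2 was lowest in the first 2 genes and highest in the last. Across time the log2 fold change of Slco1a1 was -1.76 ± 0.62 (adjusted p = 0.364), and without WT mouse 1 of 34 weeks it was -2.90 (adjusted p = 0.038, the lowest of all settings run). Slco1a4 was at 1.13 ± 0.40 (adjusted p = 0.369) and Slc22a28 at -1.11 ± 0.52 (adjusted p = 0.623). The same mice held 167, 2.05 and 9.51 CPM of Hsd3b5, a steroid dehydrogenase of male liver, and 8.44, 50.7 and 44.7 CPM of Cyp2b9, a cytochrome P450 of female liver. In WT livers of 12 weeks these were at 429, 487 and 334 and 0.107, 0.0957 and 0.785 CPM. Most other genes of this kind were not called between the times in WT mice, where 0.323% of all tested genes were. Of 8 tested genes of male liver, 1 was called lower and 0 higher (median log2 fold change -1.52). Of 6 tested genes of female liver, 1 was called higher and 0 lower (median 3.33). All 3 WT livers of 34 weeks held reads of Ddx3y (1165 to 1603). The part of these shifts in the transporter values was not tested.

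In untreated Lipa-/- mice 1 member was called between the time points, where 0.495% of all genes were. Slc22a30 was lower at 34 weeks (-1.43 ± 0.28), a call lost without the library labelled mouse 4, without untreated mouse 5 of either time or without mouse 8 of 12 weeks. In treated mice 5 of 9 were called, where 32.0% of all genes were. Slco1a4 (1.15 ± 0.41, adjusted p = 0.0315) and Slco2b1 (1.13 ± 0.29, adjusted p = 0.00516) were higher at 34 weeks. Slco1a1 (-1.55 ± 0.61, adjusted p = 0.0492), Slc22a28 (-2.12 ± 0.53, adjusted p = 0.00497) and Slc22a30 (-1.63 ± 0.28, adjusted p = 0.00144) were lower. The value of Slc22a30 was -0.96 with total counts, which shifted the median gene by 0.64 here, and -0.59 and -0.60 in the TPM fits, none of them called. The call of Slco1a1 was lost without any 1 of the 6 mice and in these 3 fits (-0.88, -0.50 and -0.50). It was also lost with upper quartile scaling (-1.48) and with length offsets (-1.44). That of Slco1a4 was lost without treated mouse 10 (0.97) or 12 (1.10) of 12 weeks or mouse 12 of 34 weeks (0.996). Without treated mouse 10 of 12 weeks 2 of the 5 calls were left.

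Whether the difference from WT itself changed between 12 and 34 weeks was tested as an interaction. For untreated mice 2 members were called, where 0.0619% of all tested genes were, and for treated mice 2, where 18.4% were and the share of members was close to that of all genes. In both cases they were Slc22a27 and Slc22a29, the genes that rose in WT mice. For untreated mice Slc22a27 was at -5.12 ± 0.58 and Slc22a29 at -5.28 ± 0.75. For treated mice they were at -3.82 ± 0.64 and -4.21 ± 0.84. These values contain the 34-week difference from WT mice, which was known for Slc22a27 beforehand. They are given without p values. Both interactions use the same WT livers. Without untreated mouse 5 of 34 weeks, 1 of the 2 calls for untreated mice was left, and without the library labelled mouse 4 both were. Without treated mouse 9 of 34 weeks, neither of the calls for treated mice was left.

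The table held 41 Slco and Slc22 genes, of which 22 passed the filter, 13 of them not among the 9. Slc22a26, named because it was called in this comparison and so given without p values, is an organic anion transporter beside Slc22a27. It stood at 0.0536, 0.144 and 0.105 CPM in WT and 41.3, 14.4 and 5.70 CPM in untreated livers at 12 weeks (7.57 ± 0.84). These WT livers held 1, 3 and 2 reads, at or under the 3 reads taken as the limit of detection. The size of the 12-week change is therefore uncertain. At 34 weeks Slc22a26 was at 1.89, 4.85 and 2.37 and 9.30, 19.4 and 21.1 CPM (2.44 ± 0.58). Slc22a18 and Slc22a23 stood at 61.2 ± 14.2 and 7.03 ± 4.72 TPM (SD, n = 3) in WT livers of 12 weeks. Slc22a18 was called at 34 weeks (-1.23 ± 0.24, adjusted p = 0.000443), and Slc22a23 was called at neither time.

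**Figure D4:**
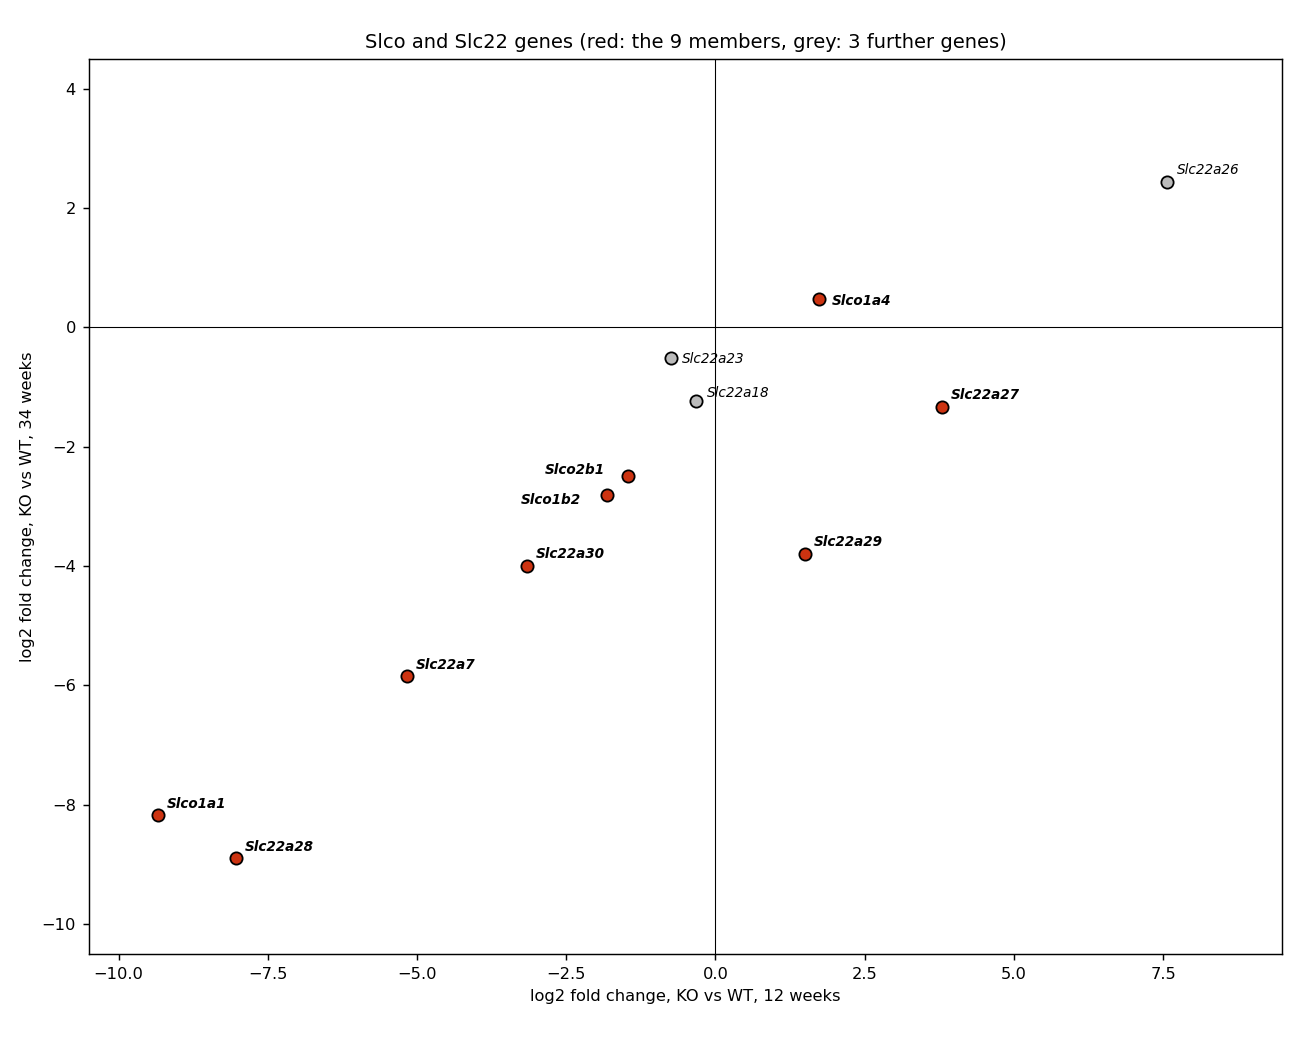
Log2 fold change between untreated Lipa-/- and WT livers at 12 weeks (x axis) and 34 weeks (y axis) for the 9 members in red and for Slc22a26, Slc22a18 and Slc22a23 in grey; both axes are edgeR estimates. Slc22a27 and Slc22a29 lie to the right of 0 and below it, Slco1a1, Slc22a28, Slc22a7, Slc22a30, Slco1b2 and Slco2b1 lie below 0 on both axes, and Slc22a26 lies at 7.57 and 2.44. The 12-week position of Slc22a26 is uncertain because the WT livers held 1, 3 and 2 reads.

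Other genes around these carriers were counted in lists chosen with earlier results known, and the genes named had the largest changes at 12 weeks, so no p values are given. Among further hepatocyte transporters of bile acids and organic ions, 4 of 11 were called higher and 4 lower at 12 weeks, and 1 and 5 at 34 weeks in untreated against WT livers. Abcb11, the bile salt export pump, was at -2.30 ± 0.27, and Slc10a1, the sodium-dependent bile acid carrier, at -1.79 ± 0.29 at 12 weeks. The subunits Slc51a and Slc51b of the basolateral bile acid exporter were higher, at 2.11 ± 0.67 and 1.80 ± 0.46. Among nuclear receptors and transcription factors of transporter genes, 0 of 11 were called higher and 1 lower at 12 weeks, and 0 and 5 at 34 weeks. Ppara, the fatty acid receptor, was called at both times (-1.42 ± 0.35 and -1.98 ± 0.35). Among genes of growth hormone and STAT5 signalling, 1 of 10 were called higher and 2 lower at 12 weeks, and 2 and 3 at 34 weeks. Ghr, the growth hormone receptor, was at -1.87 ± 0.23 and Cux2, a repressor known from female liver, at 4.25 ± 1.21 at 12 weeks. The median of all genes was at 0.02 and -0.03 at the 2 times.

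Genes known to be transcribed mainly in male liver were lower where Slco1a1 was. Of 8 tested, 8 were called lower in untreated than in WT livers at each time, and 8 were called higher in treated than in untreated livers at each time. Their summed level was 13744 to 28501 CPM in WT, 731 to 1976 in untreated and 60360 to 153717 in treated livers at 12 weeks. At 34 weeks it was 4217 to 25987, 246 to 289.8 and 9251 to 19995 CPM. Against WT livers, 1 was called higher and 1 lower in treated livers at 12 weeks and 0 and 0 at 34 weeks. Hsd3b5 was at -12.32 ± 1.65 and Elovl3, a fatty acid elongase, at -11.56 ± 0.67 at 12 weeks. Of 6 tested genes of female liver, 3 were called higher and 0 lower at 12 weeks, and 2 and 2 at 34 weeks. Their part in the transporter values was not tested. The values of untreated mice at 34 weeks in this paragraph include the library labelled mouse 4, whose sex is in doubt.

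Markers of other liver cells also differed between untreated and WT livers. At 12 weeks 8 of 10 macrophage and Kupffer cell markers were called higher and 1 lower, with summed levels of 97.6 to 259 CPM in WT, 5152 to 10533 in untreated and 917 to 2805 in treated livers. At the later time they were 180.4 to 403, 5210 to 6901 and 315 to 740.0 CPM. Hepatocyte markers, for which 1 of 6 was called lower at 12 weeks and 4 at 34 weeks, summed to 60795 to 76806 CPM in WT and 38011 to 57075 in untreated livers at 12 weeks, and to 58571 to 75444 and 22276 to 48311 CPM at 34 weeks. In TPM their sums overlapped, at 43331 ± 4441 in WT and 44583 ± 8535 in untreated livers at 12 weeks (SD, n = 3) and at 46180 ± 3023 and 36786 ± 12827 at 34 weeks. The numbers called higher and lower at 12 weeks were 3 and 0 of 5 for cholangiocytes, 4 and 1 of 6 for stellate cells, 1 and 2 of 5 for sinusoidal endothelium, 2 and 0 of 6 for lymphocytes and 5 and 0 of 5 for neutrophils. The median log2 fold change at 12 weeks was -0.78 for the hepatocyte markers and -1.81 for the 9 members. The members ranged from -9.34 for Slco1a1 to 3.80 for Slc22a27. The part of cell composition in the transporter values was not tested.

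The genes most like each member over the 18 livers were named by Pearson's r of log2 CPM, as a description, since all points share the 6 groups and the scaling. They were Mup11 (r = 0.99) and Mup21 (r = 0.99) for Slco1a1, both major urinary proteins of male liver, and Cnpy4 (r = 0.94) and Rusc1 (r = 0.93) for Slco1a4. Slco1b2 was most like Ccdc162 (r = 0.99) and Cyp2d40 (r = 0.99), Slco2b1 like Tmem220 (r = 0.99) and Shpk (r = 0.98), and Slc22a7 like Oxnad1 (r = 0.97) and Hsd3b3 (r = 0.97). Slc22a28 was most like Cdc37l1 (r = 0.99) and Abhd18 (r = 0.99) and Slc22a30 like Hao1 (r = 0.99) and Nudt7 (r = 0.99). Slc22a27 was most like Gpat3 (r = 0.96) and Cd36 (r = 0.91), of which Cd36 encodes a fatty acid carrier, and Slc22a29 like Acot2 (r = 0.87) and Vnn1 (r = 0.86). Among the members themselves, Slc22a28 and Slc22a30 had r = 0.98, Slc22a28 and Slco1a1 0.99, Slc22a27 and Slc22a29 0.75, and Slco1a4 and Slco1a1 -0.83.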

How the data were processed

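RNA of 18 mouse livers was poly(A)-selected with ERCC spike-ins and sequenced. The authors assigned reads to mouse transcripts with Salmon and deposited estimated counts per gene, not scaled for library size, together with TPM values and mean transcript lengths per gene and mouse. A further deposited table holds the authors' own comparisons, made with DESeq2 1.40.1 in R 4.3.0, namely fold changes and p values, and was not used. Mice were grouped by their labels, and nothing in the labels ties mice of different groups or times to each other.

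Estimated counts were rounded and fitted with edgeR 4.0.16 in R 4.3.3 (TMM factors, 6 group means, quasi-likelihood test) for genes with more than 100 reads in all. P values were adjusted over all 14535 tested genes by the Benjamini-Hochberg method, and 11 comparisons were made. TPM served to compare levels between genes. Alternatives were DESeq2 1.42.0, limma 3.58.1 on log2(TPM + 1) and log2(TPM + 0.1), other scalings, filters and thresholds, the mouse number as a block, and each of the 18 mice left out. Summing near-identical pairs was added after the sequences were compared. The edgeR script was tested on simulated counts. Sequences and positions came from GRCm39, the build of the deposited tables, with GENCODE M39. Shared words of 31 bases were sought in transcripts other than lncRNA.

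The members and the gene lists were chosen with earlier results of these data known. Named beyond the members were family genes called in untreated against WT mice at both times, the 3 most abundant others in WT mice, the 2 genes most like each member and up to 4 genes per list with the largest change at 12 weeks. Cyp2b9 was added after its values were seen. Results for 2 genes named by this rule are not reported here.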

Additional observations from a re-analysis of the deposited data

Results flagged for a closer look

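The difference from WT mice changed between 12 and 34 weeks for Slc22a27 and Slc22a29, in an interaction of kind of mouse and time. Differences that use the same WT livers were known when the genes were chosen. The values are therefore descriptions, given without p values. For untreated Lipa-/- mice the interaction was -5.12 on the log2 scale for Slc22a27 and -5.28 for Slc22a29. For treated mice it was -3.82 and -4.21, where 18.4% of all tested genes were called, close to the share of members. Neither of these calls was left without treated mouse 9 of 34 weeks or at adjusted p under 0.01. Between the time points Slc22a27 was at 4.59 ± 0.45 (SE) in WT, -0.54 ± 0.37 in untreated and 0.77 ± 0.45 in treated mice, and Slc22a29 at 4.72 ± 0.56, -0.56 ± 0.50 and 0.52 ± 0.61. Both genes are near-identical in sequence, and their summed counts gave -5.18 ± 0.49 and -3.91 ± 0.53. Study code and time cannot be told apart here.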

How the results depend on the processing

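Of 1237 values of single genes under other settings, 1123 kept direction and side of the threshold, 65 lost and 16 gained a call, and 33 changed sign. Of 199 counts of called members, 168 stayed within 1.5 times. The counts for untreated against WT and treated against untreated mice did so under every setting run, but Slc22a29 in untreated mice at 12 weeks lost its call at adjusted p under 0.01, with length offsets, without a filter, with log2(TPM + 1) and in a fit of only the 2 groups. No called value changed sign. The cause of the changes below was not tested.

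Counts of called members that moved were these. Between times in untreated mice 1 became 0 at adjusted p under 0.01, in both TPM fits and in the 2-group fit, 2 with DESeq2 and 0 to 1 with a mouse left out. Between times in treated mice 5 became 3 at adjusted p under 0.01 and 2 to 5 with a mouse left out (2 without mouse 10 and 3 without mouse 12 of 12 weeks, and 3 without mouse 12 of 34 weeks). Treated against WT gave 0 at adjusted p under 0.01 and 0 to 3 with a mouse left out at 12 weeks, and 1 with length offsets at 34 weeks. The interaction of untreated mice gave 1 with length offsets and 1 to 2 with a mouse left out (1 without untreated mouse 5 of 34 weeks). That of treated mice gave 0 at adjusted p under 0.01, 4 with total counts, DESeq2 and both TPM fits, and 0 to 4 with a mouse left out (0 without treated mouse 9 of 34 weeks, 1 without WT mouse 3 of 12 weeks).

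With the mouse number as a replicate block, the count between times became 1 in place of 2 in WT and 0 in place of 5 in treated mice. Mice of equal number correlated at 0.0761, -0.240 and 0.460 in WT and at -0.0765 and -0.253 in treated mice in their deviations from group means, so equal numbers were not taken as paired, and groups of one time point shared no numbers.

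The sign changes all concerned values that were not called. In fits to log2(TPM + 1) and log2(TPM + 0.1), treated against WT mice at 12 weeks gave -0.045 and -0.045 for Slco1a1, -0.17 and -0.17 for Slco1b2 and -0.019 and -0.019 for Slc22a27. At 34 weeks they gave 0.19 and 0.21 for Slc22a28, 0.011 and 0.012 for Slc22a30 and 0.10 and 0.11 for Slco2b1. Slc22a29 at 12 weeks was -0.073 with log2(TPM + 0.1) and -0.18 with total counts. Total counts also gave 0.094 for Slc22a28 and 0.023 for Slco2b1 at 34 weeks, where the upper quartile gave 0.011 for Slco2b1. Slco2b1 in treated against untreated mice at 12 weeks was -0.43 with total counts and -0.64 and -0.70 in the TPM fits, and Slc22a29 at 34 weeks was 0.28 with length offsets and -0.60 to 0.045 with a mouse left out. Leaving out a mouse gave -0.026 to 1.15 for Slc22a27 and -0.29 to 0.54 for Slc22a29 in treated against WT mice at 12 weeks, and -0.47 to 0.85 for Slc22a28, -0.35 to 0.20 for Slc22a30 and -0.21 to 0.10 for Slco2b1 at 34 weeks.

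Slc22a29 held under 20 reads in every liver outside the WT group of 34 weeks. Slc22a28 held at most 3 reads in untreated livers of 34 weeks and 2.6 to 5.1 reads in those of 12 weeks. Slc22a26 held 1 to 3 reads in WT livers of 12 weeks. Slc22a27 held 6 to 17 reads in WT and treated livers of 12 weeks. Differences at those levels were close to the limit set by depth. Groups of 3 mice, the shared WT livers and the scaling of libraries whose composition differed limit the other values.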
